A study of Mus musculus with 8 samples.

Results

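Cd34, Ly6a, Hhex, Mecom, Myc, Mycn and Eya1 were followed as a set of stem and progenitor genes together with Myc and Mycn of the Myc family. The set took in every probe outside the array's controls whose transcript accession belonged to 1 of these 7 genes, which gave 9 of the 39429 probes on each array, and 7 of the 20125 genes that could be named. Cd34 and Mecom were each covered by a pair of probes and the other genes by 1 probe each. The genes were picked by name, not by a threshold on signal.

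Cd34 encodes a surface sialomucin and Ly6a encodes Sca-1, a GPI-anchored surface protein, and both mark haematopoietic stem and progenitor cells in the mouse. Hhex is a homeobox transcription factor of early blood and lymphoid progenitors, and Mecom encodes EVI1, a zinc-finger factor of long-term stem cells. Myc and Mycn encode related basic helix-loop-helix leucine zipper factors that bind E-boxes as dimers with MAX and drive ribosome production and growth, while proteins of the MXD group and MNT compete with them for MAX. Eya1 encodes a phosphatase that acts as a transcriptional co-activator together with homeobox proteins of the sine oculis family.

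All RNA came from Ebf1-deficient mouse pro-B cell lines, which were derived from mutant fetal liver and grew on stroma with SCF, Flt3L and IL-7 but without EBF1, a transcription factor that B-lineage commitment requires. The pro-B(+) line, which retains potential for the T lineage, was kept on OP9 stromal cells, and the pro-B(-) line, which lacks that potential, on the thymic stromal line TD7. The remaining groups were pro-B(-) cells that carried a lentiviral vector with an EF promoter and a rat CD2 marker, either empty, named pro-B(-)/Mock, or holding an Lmo2 insert, named pro-B(-)/LMO2. Their stromal cells are not named in the labels. Each of the 4 groups had 2 one-colour arrays. The authors state 2 independent biological replicates for their array gene list of the parental lines. The labels do not say whether replicates were separate cultures. The tests measure the spread between these arrays, which for the transductants may be technical. The titles do not give the number of clones behind a line.

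Signals are given as log2 of the processed signal relative to the 75th percentile of the same array, so that a value of 0 lies at the upper quartile of that array. A gene was called in a comparison when its Benjamini-Hochberg adjusted p, from a limma fit over all probes tested, was under 0.05. Per array, 56.5% to 61.3% of probes were flagged well above background and 0 spots of these probes as saturated, and replicates correlated at r = 0.9988 to 0.9991. Lmo2 itself measured 0.99 and 0.93 in pro-B(-)/LMO2 cells and 0.35 on each pro-B(-)/Mock array, as against 2.09 and 2.10 in pro-B(+) and 0.63 on each pro-B(-) array. Whether the Lmo2 probe reads the insert of the vector is not given either, so these values may leave out Lmo2 RNA from the vector. Ebf1, the gene deleted in every group, had signals of 1.12 to 1.53 that were well above background on all 8 arrays. Whether the Ebf1 probe lies outside the deleted stretch is not given in the sources used here. The parental lines shared 1 slide and the transductants another, so that in any comparison of a parental line with a transductant slide and group cannot be told apart. In these bulk samples, fewer cells that express a gene and less RNA per cell cannot be told apart.

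**Figure D1:**
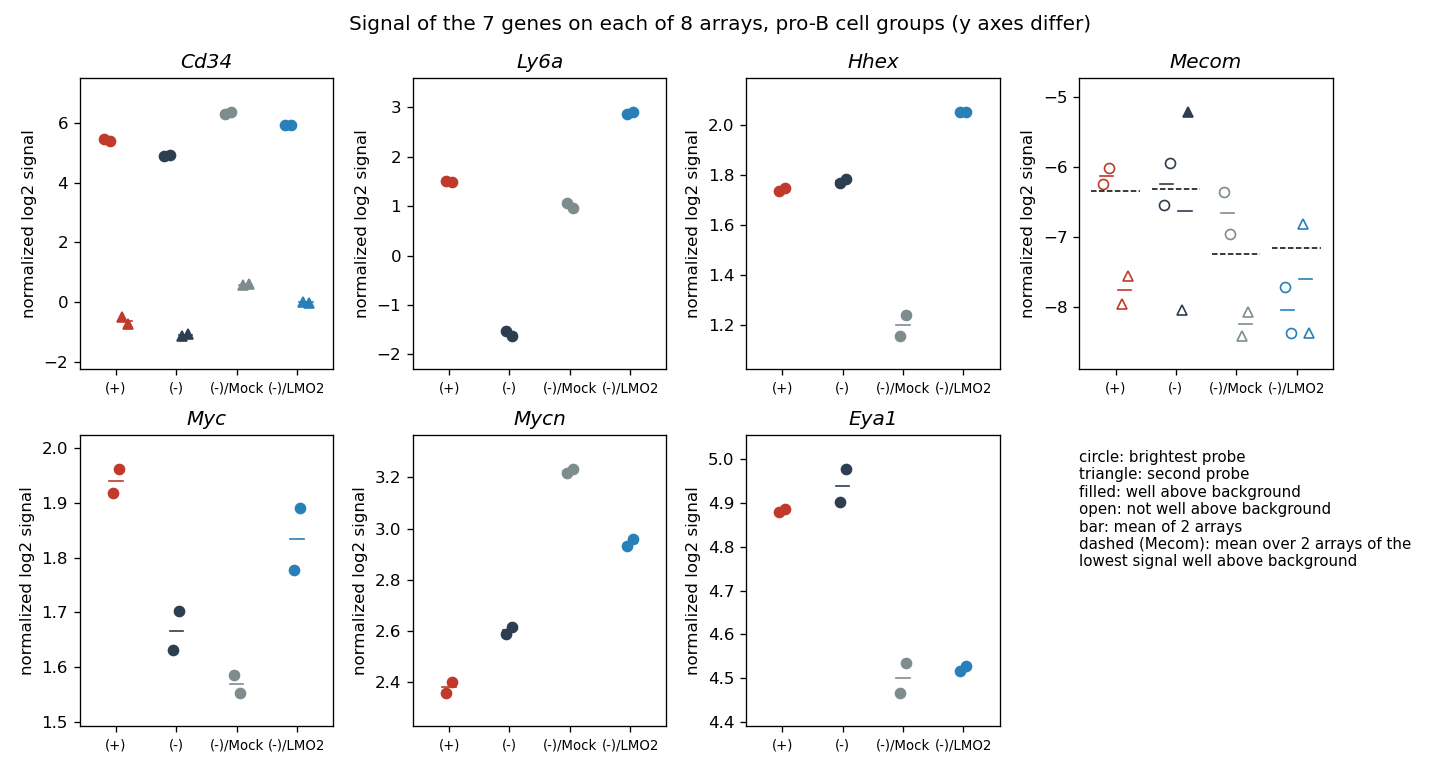
Normalized log2 signal of the 7 genes on each of the 8 arrays, by group; circles are the brightest probe, triangles the second probe, filled symbols are well above background, and bars are means of 2 arrays. Ly6a ran from -1.57 in pro-B(-) to 2.88 in pro-B(-)/LMO2, while nearly every Mecom symbol is open.

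The set did not move as a block between the parental lines. Pro-B(+) cells had more Ly6a, Cd34 and Myc than pro-B(-) cells and less Mycn, and the values of Hhex and Eya1 did not pass the test. That made 3 genes higher and 1 lower of the 6 that could be tested, on a background of 49.2% of 23479 tested probes called, 20.8% upward and 28.4% downward. In pro-B(-) cells that carried Lmo2, Ly6a, Hhex and Myc rose relative to the empty vector and Cd34 and Mycn fell, which made 5 calls among 6 genes, on a background of 64.8% of 23006 probes called, 28.4% upward and 36.4% downward. Between the empty vector and no vector 3 genes were higher and 2 lower, and the background was 59.3% of 23057 probes, 28.5% upward and 30.9% downward. With 6 genes these shares do not stand apart from the background of arrays on which small differences pass the test. The Myc calls of both comparisons were lost when arrays were scaled to their medians.

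**Figure D2:**
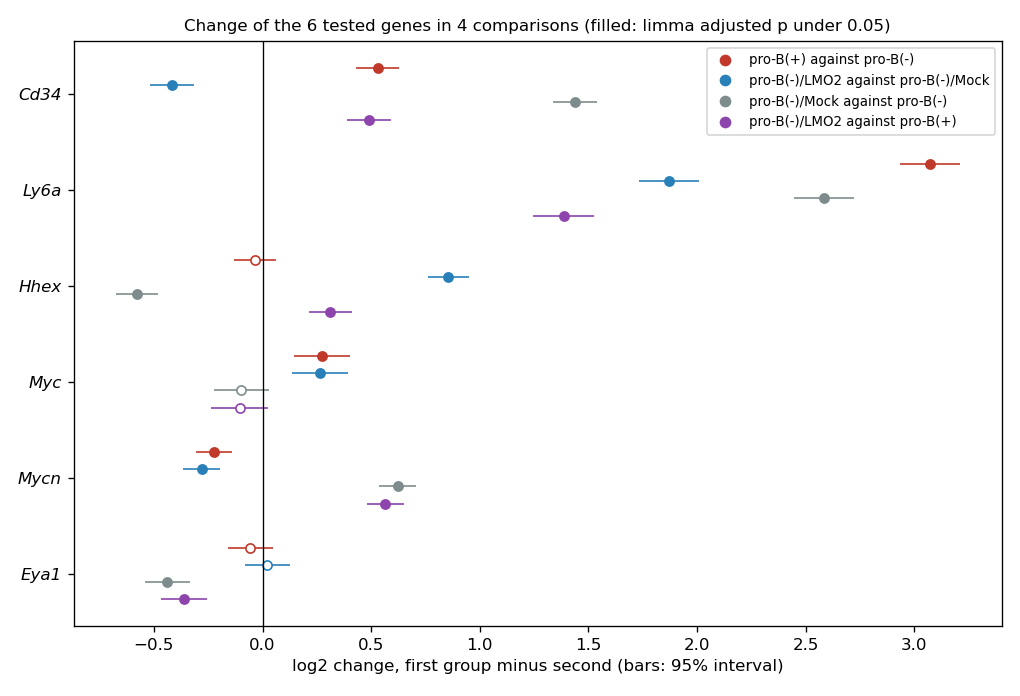
Log2 change of the 6 testable genes in 4 comparisons, with 95% intervals; filled points have an adjusted p under 0.05. Ly6a lies to the right of 0 in all 4 comparisons, whereas Cd34 lies to the right for the parental lines (0.53) and to the left with Lmo2 (-0.42).

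Ly6a had the widest range of the set. Its signal was 1.52 and 1.48 in pro-B(+), -1.52 and -1.62 in pro-B(-), 1.07 and 0.96 in pro-B(-)/Mock, and 2.86 and 2.90 in pro-B(-)/LMO2. All neighbours in the order pro-B(-)/LMO2, pro-B(+), pro-B(-)/Mock, pro-B(-) passed the test. Pro-B(+) cells had 8.40-fold more Ly6a signal than pro-B(-) cells, a log2 difference of 3.07 with a 95% interval of 2.93 to 3.21 (adjusted p = 8.8e-07). Lmo2 raised it 3.66-fold over the empty vector, a log2 difference of 1.87 with an interval of 1.73 to 2.01 (adjusted p = 3.8e-06). The empty-vector cells already exceeded the untransduced pro-B(-) cells by 2.59 on the log2 scale. The parental difference was larger than the Lmo2 difference by 1.20 on the log2 scale (adjusted p = 1.6e-04). In that test of one contrast against the other, which called 2 members upward and 1 downward, 54.1% of 24591 probes were called, 29% upward and 25.1% downward.

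Ly6a belongs to a cluster of related GPI-anchored proteins whose sequences resemble each other, so that a probe of 1 of them may also read another. Of the 10 other family members listed, 8 were on the array. In the parental comparison 5 of 5 tested were higher, and with Lmo2 6 of 6 tested were higher, as against 25.7% and 31.1% of all named genes (27.1% and 37.7% were lower). A gene dim in 1 group enters a comparison through the group in which it is bright, so its direction is partly fixed by the filter, here for Ly6i in both comparisons and Ly6h with Lmo2. Leaving such genes out, 4 of 4 were higher in each comparison. Without pro-B(+) replicate 2, 3 were higher in the parental comparison, and with scaling to the array median 3 were higher and 1 lower. Ly6c1, a marker of monocytes and some lymphocytes, followed Ly6a closely: its signal in pro-B(+) was 7.06 times that in pro-B(-) cells, and Lmo2 raised it 3.53-fold. Ly6d, which marks early B-lineage progenitors, differed by only 0.19 on the log2 scale between the parental lines but rose 6.84-fold with Lmo2. Over the 8 arrays, among 11647 genes well above background throughout, the patterns most like that of Ly6a after centring each gene on its own mean were those of Tmem37, Ly6c1 and Srgap3, with root mean square differences of 0.0612, 0.0985 and 0.26. These are descriptions over 8 arrays that share slides and cell lines.

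Ly6a is also known as an interferon-inducible gene, and the other interferon-stimulated genes listed were read beside it. Of all named genes 25.7% were higher and 27.1% lower between the parental lines, and 31.1% and 37.7% with Lmo2. In the parental comparison 14 of 18 tested were higher, 1 was lower and the median log2 change was 1.94. Over the 16 genes above background on all arrays compared, which leaves out Ifit1 and Ifit3, 12 were higher, 1 was lower and the median was 1.56. With Lmo2 14 of 16 were higher, 1 was lower and the median was 1.77, and over the 13 above background throughout, without Cxcl10, Ifit2 and Oas1a, 12 were higher, 0 lower and the median was 1.38. Usp18, a protease that removes ISG15, was 6.34-fold higher in the pro-B(+) line and 9.60-fold higher with Lmo2, and Isg15 itself was 6.01-fold and 7.08-fold higher. The empty-vector cells went another way. Against untransduced pro-B(-) cells 3 of 16 of these genes were higher and 7 lower, where 30.9% and 30% of all named genes were, with a median of -0.27 (-0.18 over the 14 above background throughout), and Usp18 fell by 1.24 on the log2 scale where Ly6a was 2.59 higher. The median of the list had the sign of the Ly6a change in the parental and the Lmo2 comparison and the opposite sign between empty vector and no vector. In pro-B(-)/LMO2 against pro-B(+), where Ly6a was 1.39 higher, 7 of 18 were higher and 9 lower. All named genes there were 35% higher and 43.1% lower. The median of the list was -0.18, but 0.28 over the 15 above background throughout. These last 2 comparisons lie across slides, and the part of interferon in the Ly6a values was not tested.

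Stromal transcripts differed between the groups in the same samples. Beside the counts below, 25.7% of all named genes were higher and 27.1% lower between the parental lines. The shares were 31.1% and 37.7% with Lmo2, and 30.9% and 30% for the empty vector against no vector. In the parental comparison 16 of 17 stromal markers tested were higher in the pro-B(+) line, with a median log2 change of 1.35 (15 of 16 and 1.33 without Fbn1, which was dim in pro-B(-) cells). In pro-B(-)/Mock against pro-B(-) cells 15 of 18 were higher and 1 lower, with a median of 0.79 (13 of 16 and 0.70 over those above background throughout). With Lmo2 against the empty vector 9 were higher (5 under median scaling) and 4 lower of 18, with a median of 0.20. On the log2 scale the summed stromal signal was at most 4.06 on the pro-B(-) arrays, and lay between 5.07 and 5.35 on the other 6. Dcn and Lum, which mark fibroblasts, were not well above background on both arrays of any group, whereas the collagens Col1a1 and Col1a2 were measured on every array. Since Ly6a is also found on stromal and endothelial cells, these values stand beside its differences, and their part in them was not tested. Of the 10 endothelial markers 3 could be tested, and Cdh5, Emcn, Tek and Tie1 were not above background on both arrays of any group. Myeloid markers moved with the parental lines as well: 13 of 16 tested were higher in the pro-B(+) line, with a median of 2.60. Lyz2, S100a8 and S100a9 entered only through that line, and over the 13 other markers 10 were higher, 1 was lower and the median was 1.96. The summed log2 signal of the myeloid markers was 7.01 and 7.03 there and 6.28 to 6.49 on the other arrays. With Lmo2 7 of 14 myeloid markers were higher and 3 lower, or 5 and 2 of the 11 above background throughout. Of the B-lineage markers 3 were higher and 7 lower of 14 in the parental comparison (2 and 5 of the 11 above background throughout), and 4 higher and 5 lower of 13 with Lmo2, where their summed log2 signal was 4.92 and 4.95 against 3.45 to 3.72 on the other arrays. A sum follows its brightest genes. The mean log2 signal of these markers was -2.50 and -2.65 in pro-B(-)/LMO2 and -2.84 to -2.51 on the other arrays, and their median change with Lmo2 was -0.08. Of the erythroid and megakaryocytic markers 2 of 6 tested were higher and 1 lower between the parental lines, and 4 of 4 were higher with Lmo2, whereas of the 3 above background throughout in each comparison 0 were higher and 1 lower, and 3 were higher. The part of these cell types in the values of the 7 genes was not tested.

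**Figure D3:**
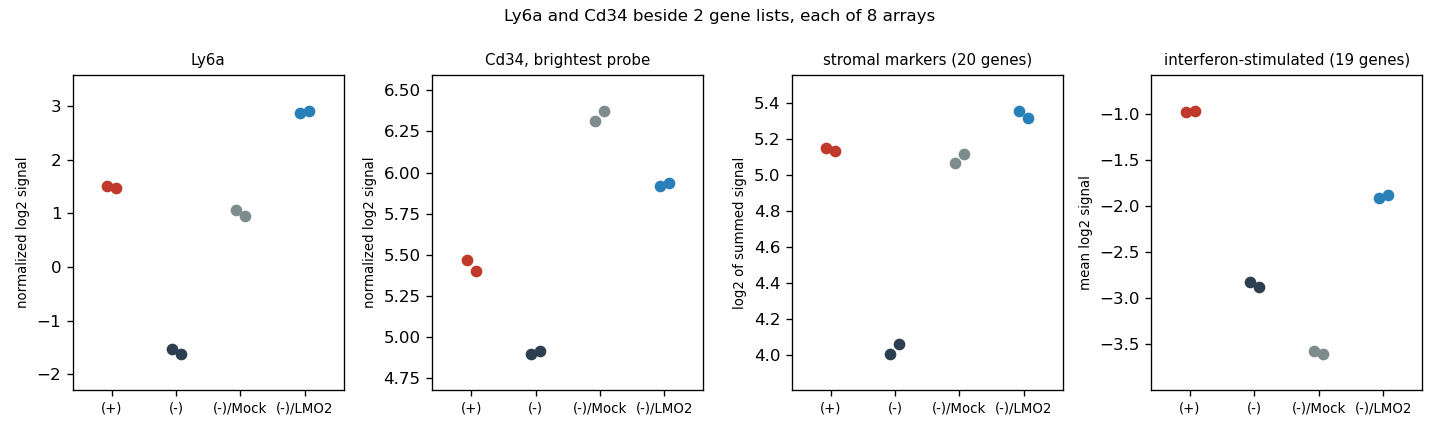
Ly6a and Cd34 on each of 8 arrays beside the log2 summed signal of the stromal markers and the mean log2 signal of the interferon-stimulated genes. The pro-B(-) arrays are lowest for Ly6a, Cd34 and the stromal sum (at most 4.06), and the pro-B(-)/Mock arrays are lowest for the mean of the interferon-stimulated genes. The log2 summed signal of the latter list, which is not drawn, is lowest in pro-B(-) (4.65 and 4.60, against 4.68 and 4.69 in pro-B(-)/Mock).

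Cd34 was bright in every group and moved in opposite directions in the parental and the Lmo2 comparison. The brighter probe measured 5.47 and 5.40 in pro-B(+), 4.90 and 4.92 in pro-B(-), 6.32 and 6.37 in pro-B(-)/Mock, and 5.92 and 5.93 in pro-B(-)/LMO2. Every step in the order pro-B(-)/Mock, pro-B(-)/LMO2, pro-B(+), pro-B(-) passed the test. The pro-B(+) signal was 1.44 times that of pro-B(-) cells, a log2 difference of 0.53 and an interval of 0.43 to 0.63 (adjusted p = 1.8e-04). With Lmo2 it fell by 0.42 on the log2 scale, with an interval of -0.52 to -0.32 (adjusted p = 2.9e-04). The difference between both contrasts was 0.95 (adjusted p = 1.2e-04). The largest Cd34 difference was that between the empty vector and the untransduced cells, 1.44 on the log2 scale or 2.71-fold, which lies across slides. The dimmer probe gave the same order of groups, with a parental difference of 0.48 and a fall of 0.59 with Lmo2. For the empty vector against the untransduced cells the dimmer probe gave a larger difference, 1.68 or 3.20-fold. The parental difference of that probe was 0.20 and no longer passed the test when arrays were scaled to their medians (adjusted p = 0.105).

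Hhex rose with Lmo2, and its parental difference did not pass the test. It measured 1.74 and 1.75 in pro-B(+), 1.77 and 1.79 in pro-B(-), 1.16 and 1.24 in pro-B(-)/Mock, and 2.05 on each pro-B(-)/LMO2 array. The parental arrays lay next to each other, the empty-vector arrays below them and the Lmo2 arrays above. The parental difference was -0.04, with an interval of -0.13 to 0.06 (adjusted p = 0.485), and it became -0.32 and passed the test only when arrays were scaled to their medians. The Lmo2 difference of 1.81-fold over the empty vector exceeded the parental difference by 0.89 on the log2 scale (adjusted p = 1.3e-04). The empty-vector cells were lower than the untransduced cells by 0.58, so that Hhex with Lmo2 was 0.28 above untransduced pro-B(-) cells, and that smaller step was lost under median scaling (0.09, adjusted p = 0.115). The nearest patterns were those of Pnrc1, Ptpn4 and Dennd1b, with root mean square differences of 0.0695 to 0.0772.

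LMO2 does not bind DNA itself but bridges GATA and E-box binding factors in blood cells, so the promoters of the members were searched for the letters GATA on either strand. RefSeq promoters (GRCm38.p6, 250 bases before to 50 after the start) were at hand for Cd34, Hhex, Mycn and Mecom, and not for Ly6a, Myc and Eya1. The windows below hold, for the 3 of these genes that changed with Lmo2, the match nearest to the start, with the motif or its reverse complement in capitals. They lie at chr1:194938813-194938838 (plus strand), chr19:37434777-37434802 (plus strand) and chr12:12941848-12941873 (minus strand).
Cd34: aacagggagggGATAagccagcatcc
Hhex: ctgcccgagccTATCgcctggagcgc
Mycn: tcagttaataaTATCccccgagcttc
All 4 promoters held the letters, as did those of 61.5% of the 27025 genes with a promoter entry, so a match does not set these genes apart. Cd34 fell, Hhex rose and Mycn fell with Lmo2.

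Mecom was at the limit of detection. Of 16 readings, 2 probes on 8 arrays, 1 was well above background, on pro-B(-) replicate 2 with the dimmer probe (-5.21 on the log2 scale). The other 7 readings of that probe lay between -8.42 and -6.82, and those of the other probe between -8.38 and -5.94. Neither probe was above background on both arrays of any group, so Mecom was tested in no comparison and has only an upper bound in these cells.

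Among the other stem and progenitor genes listed, 24 of 34 could be tested between the parental lines, with 8 of them higher in the pro-B(+) line, 10 lower and a median of -0.01. With Lmo2, 9 of 22 were higher and 11 lower, with a median of 0.00, or 5 higher under median scaling. Of all named genes 25.7% were higher and 27.1% lower between the parental lines, and 31.1% and 37.7% with Lmo2. Over the 21 genes above background throughout in each comparison, the medians were -0.10 and -0.14. Among those genes the largest changes were those of Meis1, 53.7-fold higher in the pro-B(+) line, and of Erg, 21.4-fold lower with Lmo2. The log2 change of Meis1 with Lmo2 was -1.13, and that of Erg between the parental lines was -1.32. Kit, the receptor for SCF, was like Ly6a in being higher in both comparisons, 4.72-fold between the parental lines and 2.92-fold with Lmo2. Hoxa9, a homeobox gene of progenitors, was lower in both, by 0.63 and 1.09 on the log2 scale, and so was Lyl1, a partner of LMO2 in its complexes, by 0.42 and 0.90. Tal1, another partner, differed by -0.22 between the parental lines and rose by 0.30 with Lmo2.

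Myc was slightly higher and Mycn slightly lower in both the parental and the Lmo2 comparison, except that Myc did not pass the test relative to the array median. Myc measured 1.92 and 1.96 in pro-B(+), 1.63 and 1.70 in pro-B(-), 1.59 and 1.55 in pro-B(-)/Mock, and 1.78 and 1.89 in pro-B(-)/LMO2. The whole span was small, and the order was pro-B(+), pro-B(-)/LMO2, pro-B(-), pro-B(-)/Mock. Neither pro-B(+) and pro-B(-)/LMO2 (adjusted p = 0.114) nor pro-B(-) and pro-B(-)/Mock (adjusted p = 0.155) passed the test, except that the first difference, -0.11, did so at -0.16 with normexp and without pro-B(-)/LMO2 replicate 2, and the second, -0.10, at -0.18 with normexp. Its pro-B(+) signal was 1.21 times that of pro-B(-) cells, a log2 difference of 0.27 and an interval of 0.14 to 0.40 (adjusted p = 0.0075). With Lmo2 it was 1.20-fold higher, with a difference of 0.26 and an interval of 0.14 to 0.39 (adjusted p = 0.0054). Both depended on the scaling: relative to the array median, Myc differed by -0.01 between the parental lines (adjusted p = 0.861) and by 0.06 with Lmo2 (adjusted p = 0.389).

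Mycn measured 2.36 and 2.40 in pro-B(+), 2.59 and 2.62 in pro-B(-), 3.22 and 3.23 in pro-B(-)/Mock, and 2.93 and 2.96 in pro-B(-)/LMO2. Each step of the order pro-B(-)/Mock, pro-B(-)/LMO2, pro-B(-), pro-B(+) passed the test. Its signal was 1.17-fold lower in the pro-B(+) line than in the pro-B(-) line, a log2 difference of -0.22 with an interval of -0.31 to -0.14 (adjusted p = 0.0031). With Lmo2 it fell by 0.28, with an interval of -0.36 to -0.20 (adjusted p = 7.4e-04). For Myc and for Mycn the parental and the Lmo2 change differed by 0.01 and 0.06, with intervals of -0.18 to 0.19 and -0.06 to 0.18 for the difference. The nearest patterns to Mycn were those of Tmem241, C330018D20Rik and Tmem177, and the nearest to Myc those of Tagap1, Arl8a and Glb1.

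The change of Myc minus that of Mycn is the same under any scaling that subtracts 1 constant per array, such as the median or the 75th percentile, but not under quantile normalization or normexp. It was 0.50 between the parental lines (0.47 to 0.55 over all settings) and 0.55 with Lmo2 (0.48 to 0.59), and -0.72 for the empty vector against untransduced pro-B(-) cells (-0.79 to -0.70). Centred on its mean over the 8 arrays, the log2 ratio of Myc to Mycn was 0.59 and 0.60 in pro-B(+), 0.08 and 0.12 in pro-B(-), -0.60 and -0.64 in pro-B(-)/Mock, and -0.12 and -0.03 in pro-B(-)/LMO2. This measure was chosen after the values were seen, and it is given without a test.

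The other genes of the MYC, MAX and MXD network gave few calls between the parental lines, with 1 higher (Mycl, which was dim in 1 of the lines) and 1 lower of 9 tested, a count that ran from 0 to 7 lower across settings and reached 7 with median scaling. With Lmo2, 5 were higher (4 without Mycl) and 3 lower of 9, and 3 were higher without pro-B(-)/Mock replicate 2 or with median scaling. Mnt and Mxd1, which oppose MYC at MAX, rose by 0.76 and 0.38 on the log2 scale, while Mxd3, of the same group, fell by 0.51. Max itself differed by 0.07 (adjusted p = 0.139). The shares of all named genes higher and lower were 25.7% and 27.1% between the parental lines and 31.1% and 37.7% with Lmo2.

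Most MYC target genes were lower with Lmo2. Of 40 targets listed, chiefly genes of ribosome production, nucleotide synthesis and translation, 37 fell and 1 rose, with a median of -0.47, beside 37.7% of all named genes lower and a median of -0.03. The count of targets that fell was 34 to 39 under the alternative settings. Nme1, a nucleoside diphosphate kinase, fell by 0.95, Wdr12 and Gnl3, which serve ribosome assembly, by 0.79 and 0.74, and Ccnd2, which encodes cyclin D2, was the gene that rose, by 0.89. Between the parental lines 7 targets were higher and 6 lower, with a median of 0.00, beside 25.7% and 27.1% of all named genes. That parental count shifted with the settings, to 2 higher and 33 lower relative to the array median and to 13 higher with quantile normalization or normexp. It was 11 higher with an intensity trend and 4 with no filter on dim probes. Without pro-B(-) replicate 2, pro-B(+) replicate 2 or pro-B(-) replicate 1 it was 2, 3 and 4 higher. In the empty-vector cells against untransduced cells 8 were higher and 13 lower, with a median of -0.02, beside 30.9% and 30% of all named genes.

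**Figure D4:**
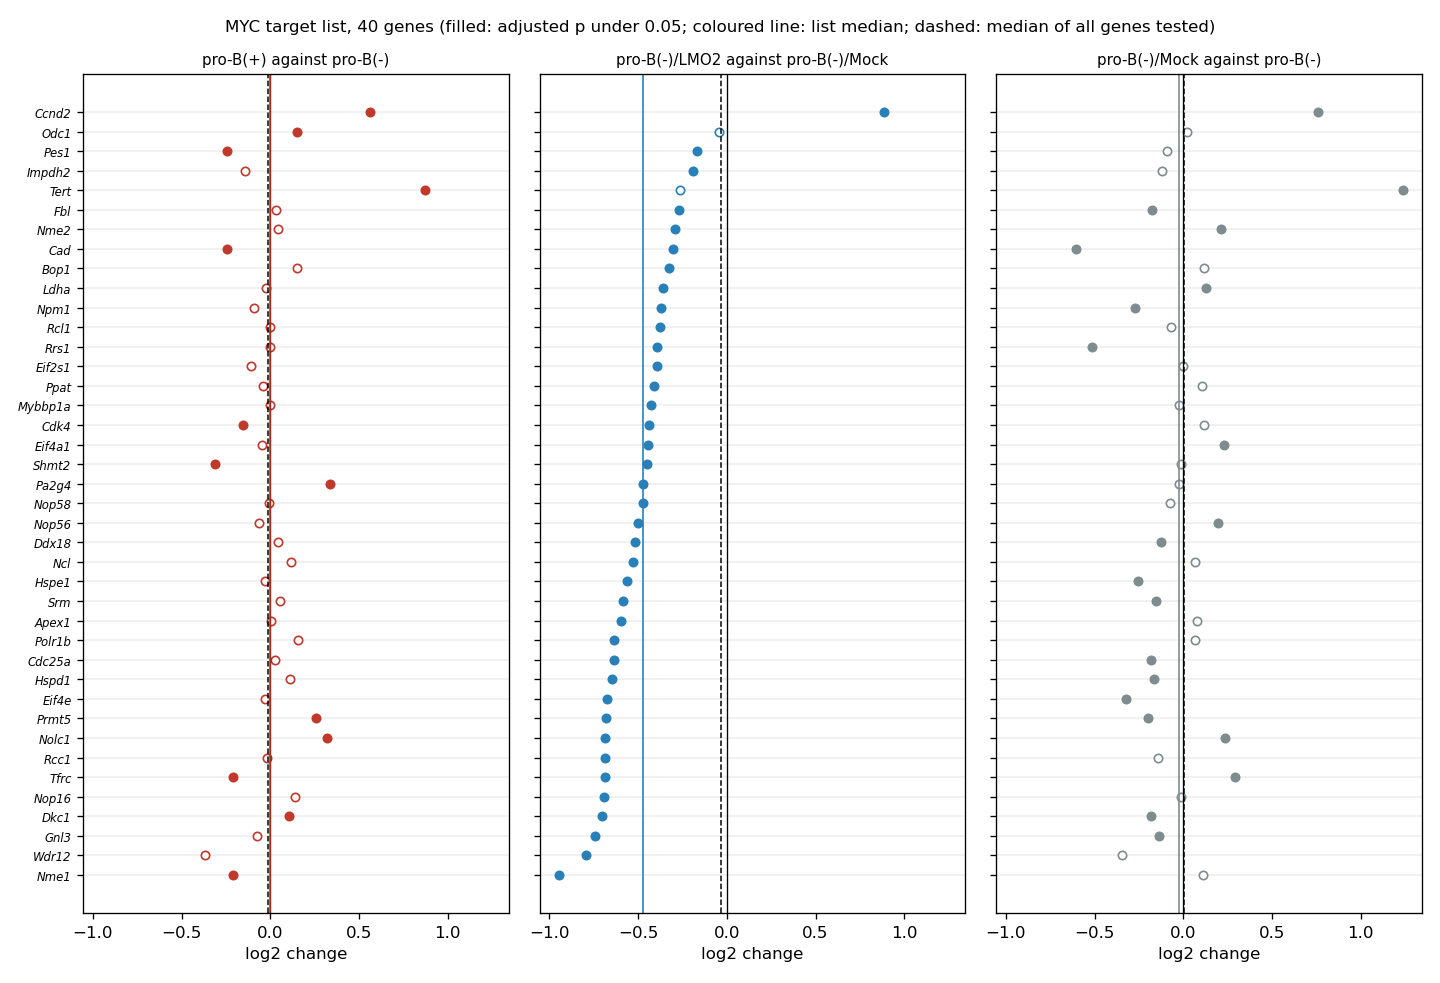
Log2 change of the 40 MYC target genes in 3 comparisons, ordered by the change with Lmo2; filled points have an adjusted p under 0.05, the coloured line is the median of the list and the dashed line that of all named genes tested. With Lmo2, 37 points are filled on the left of 0, around a median of -0.47, whereas the parental median is 0.00.

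The letters CACGTG, the E-box bound by MYC and MAX, which read the same on both strands, were searched in the promoters of the targets. Of 34 targets with a promoter entry 10 held them, 29.4%, as against 8.09% of all 27025 genes, and none of the 4 promoters of members did. With Lmo2 10 of these 10 fell, as did 22 of the 24 targets whose promoter did not hold the letters, so the fall does not set the E-box genes apart. The windows show the match closest upstream of the start for the 5 of them that fell most, with the E-box in capitals. They lie at chr11:93968274-93968301 (minus strand), chr3:138527193-138527220 (plus strand), chr1:55088307-55088334 (minus strand), chr14:50924914-50924941 (plus strand) and chr11:69672596-69672623 (minus strand).
Nme1: ctgcggggaacCACGTGaggccggggag
Eif4e: gacacgtccgtCACGTGggcaggagccg
Hspd1: gccggctgggaCACGTGaaaaggccgcg
Apex1: cgctccagaacCACGTGggggcggagcc
Eif4a1: gatcgcctccgCACGTGtaaaggtgctg
The E-box began 18, 64, 80, 24 and 189 bases before the start. With Lmo2 these genes fell by 0.95, 0.68, 0.65, 0.60 and 0.44 on the log2 scale.

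Eya1 separated the parental lines from the transductants. It measured 4.88 and 4.89 in pro-B(+), 4.90 and 4.98 in pro-B(-), 4.47 and 4.53 in pro-B(-)/Mock, and 4.52 and 4.53 in pro-B(-)/LMO2. The Lmo2 arrays lay within the range of the empty-vector arrays. Neither the parental difference, -0.06 with an interval of -0.16 to 0.05, nor the Lmo2 difference, 0.02 with an interval of -0.08 to 0.13, passed the test. Relative to the array median the parental difference was -0.34 and passed the test (adjusted p = 9.7e-04). Pro-B(+) then no longer stood apart from pro-B(-)/Mock: that difference went from 0.38 to 0.08 (adjusted p = 0.164). The Lmo2 value was -0.19 relative to the array median, 0.22 after quantile normalization and 0.27 with normexp, each past the threshold, so its direction hung on the scaling. The empty-vector cells were lower than pro-B(-) by 0.44 (adjusted p = 4.6e-04) and the Lmo2 cells lower than pro-B(+) by 0.36, and both of these lie across slides. The nearest patterns were those of Srek1, Hemgn and Neurl1b, with root mean square differences of 0.0246 to 0.0264.

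Among the other EYA genes, the DACH genes and the sine oculis homeobox genes, 3 were above background on all arrays of the parental lines, and of these 2 were higher in the pro-B(+) line and 1 lower. With Lmo2, 2 were higher and 1 lower of the 4 above background throughout. Between the parental lines 25.7% of all named genes were higher and 27.1% lower, and 31.1% and 37.7% with Lmo2. Eya2, a paralogue of Eya1, rose 6.29-fold with Lmo2 and was 3.51-fold higher with the empty vector than without it. Six5, a sine oculis homeobox gene, was lower by 0.52 in the pro-B(+) line and rose by 0.79 with Lmo2. Eya3 differed by 0.16 and fell by 0.22.

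The Lmo2 cells were compared with the pro-B(+) line to see how close their levels came. Ly6a, Mycn, Cd34 and Hhex were higher in pro-B(-)/LMO2 by 1.39, 0.56, 0.49 and 0.31 on the log2 scale, Eya1 was lower by 0.36, and Myc differed by -0.11 with an interval of -0.24 to 0.02. That made 4 genes higher and 1 lower of 6, on a background of 76.4% of 24142 probes called, 34.9% upward and 41.5% downward, in a comparison that lies across slides. The comparisons of pro-B(+) with pro-B(-)/Mock and of pro-B(-)/LMO2 with pro-B(-), used above for the order of levels and, the latter, for the step of Hhex, called 68.8% and 74.8% of probes. Ly6a thus passed the level of the pro-B(+) line and Mycn remained above it.

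**Figure D5:**
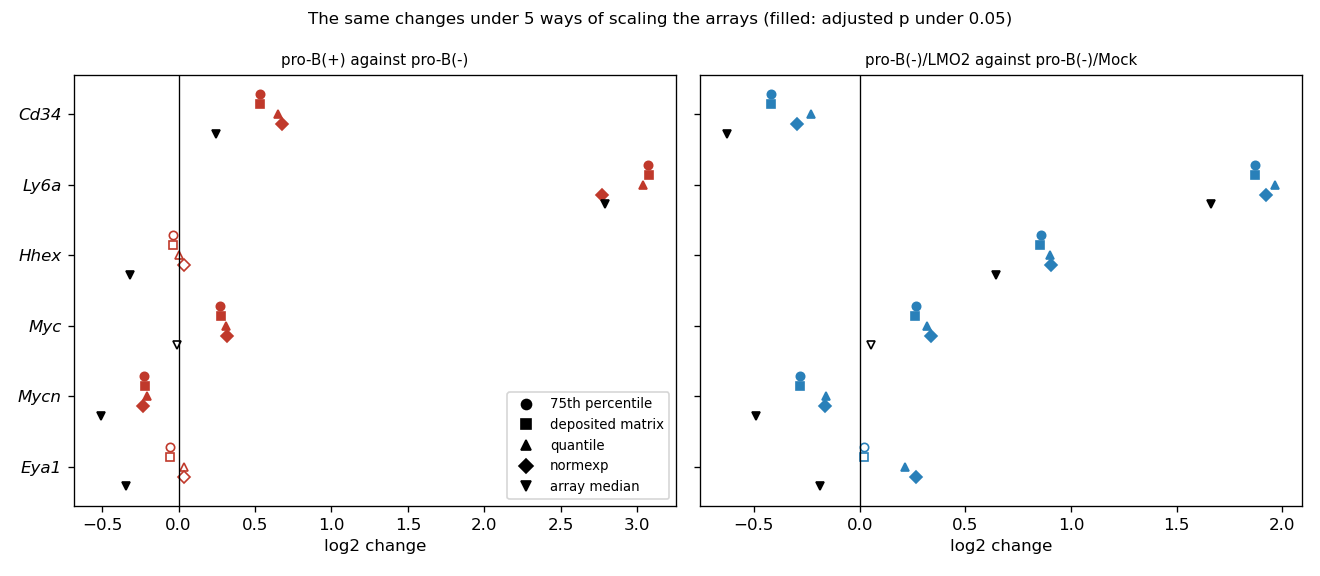
Log2 change of the 6 testable genes between the parental lines (left) and with Lmo2 (right) under 5 ways of scaling the arrays; filled symbols have an adjusted p under 0.05. Under scaling to the array median (black) Myc moved from 0.27 to -0.01 and from 0.26 to 0.06, while Ly6a, Cd34 and Mycn kept their side of 0.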

How the data were processed

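Scanner files and a processed matrix from 8 Agilent one-colour mouse arrays were used. Per the file headers, the intensity deposited for each spot came from Feature Extraction, background subtracted and detrended, with flags for outliers, saturation and signals well above background. The authors' deposited matrix holds log2 values after 75th percentile normalization in GeneSpring, and each of its columns equalled log2 of that array's intensity up to a constant (SD up to 0.0067).

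Control spots and outlier spots were left out (51 probes lost), which left 39378 probes. Symbols came from transcript accessions matched to a RefSeq table of GRCm38.p6 (67.4% of probes matched). The array was annotated on mm9, so no array coordinates are given. The brightest probe stood for a gene. limma 3.58.1 in R 4.3.3 fitted 4 group means to all 8 arrays (4 residual degrees of freedom, lmFit and eBayes). Probes entered a comparison if 1 of its groups had both arrays flagged well above background. Arrays limit the precision by their number: with 2 against 2 the smallest 2-sided exact permutation p is 0.333. The script was tested on simulated data.

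Named were the 7 members, genes of listed pathways and markers, and the 3 genes nearest each member. The members and lists were chosen with earlier results of these data known. Alternatives covered scaling to the median, quantile normalization, normexp (offset 50), the deposited matrix, filters, probe choice, the fit, a replicate block and each array left out. Replicate numbers showed no effect shared between groups, which cannot tell whether the samples were prepared in pairs. Promoters came from RefSeq.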

Additional observations from a re-analysis of the deposited data

Results flagged for a closer look

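The parental change and the Lmo2 change of a gene were tested against each other, and 3 of the 6 testable genes differed. Of all 24591 probes tested 54.1% differed, 29% upward and 25.1% downward, so the count does not set these genes apart. Cd34 was higher in the line with T-lineage potential than in the line without, and lower with Lmo2 than with the empty vector, a difference of 0.95 between both log2 changes (adjusted p = 1.2e-04 by limma). For Ly6a both changes were upward, and the parental one was larger by 1.20 (adjusted p = 1.6e-04 by limma). For Hhex the parental change minus the Lmo2 change was -0.89 (adjusted p = 1.3e-04 by limma). Each difference kept its call and direction under all 18 alternatives, among them each array left out. These contrasts share no array, and each lies within 1 slide. The slides of the contrasts differ, so that a change that depends on the slide cannot be told apart from the contrast.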

How the results depend on the processing

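Cd34 (brighter probe), Ly6a and Mycn kept their direction and call in every comparison of 2 groups under all 18 alternatives. Scaling to the array median moved the median of all probes from -0.04 to -0.33 between the parental lines and from -0.04 to -0.25 with Lmo2, took the share of calls that were higher from 42.3% to 15.9% and from 43.9% to 24.6%, and took the parental calls from 11557 to 18601 probes. Under it Myc turned to -0.0111 between the parental lines and to -0.0234 in pro-B(-)/LMO2 against pro-B(-), Eya1 turned to -0.19 with Lmo2, 3 members in place of 1 were lower between the parental lines, 2 in place of 4 were higher in pro-B(+) against pro-B(-)/Mock, where the share of calls that were higher went from 50% to 23.9%, and 3 in place of 5 were higher in pro-B(-)/LMO2 against pro-B(-), where it went from 43.8% to 30.6%. In pro-B(-)/LMO2 against pro-B(+), 2 members in place of 1 were lower with normexp, with no filter on dim probes, and without pro-B(-)/LMO2 replicate 2, the range over arrays left out being 1 to 2. With no filter, 2 in place of 1 were lower in pro-B(-)/LMO2 against pro-B(-), and with normexp 2 in place of 1 were lower in the difference of the contrasts. Across the alternatives, all probes called ran from 16270 to 20886 in pro-B(-)/LMO2 against pro-B(+) (18446 in the main fit). They ran from 15756 to 18902 in pro-B(-)/LMO2 against pro-B(-) (17579), and from 10956 to 14052 in the difference of the contrasts (13298). The small Myc step between pro-B(-)/LMO2 and pro-B(-), 0.17, missed the threshold without pro-B(-) replicate 1 (0.13) and without pro-B(-)/LMO2 replicate 2 (0.11). The cause of these shifts was not tested.

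A group left with 1 array was assumed to vary like the others. Replicate differences of the groups correlated at -0.03 to 0.05, so no effect shared by replicate number was seen. This cannot tell whether the samples were prepared in pairs. The replicate block changed no member's call (11300 probes called between the parental lines and 14696 with Lmo2). A slide term was not run, since slide could not be estimated beside the groups. Signal over background limits Mecom alone among the 7 genes.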
